A study of Mus musculus with 10 samples.

Results

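Tumour-associated macrophages (TAM) labelled as carrying a conditional knockout (cKO) of the aryl hydrocarbon receptor gene Ahr were compared with macrophages of the healthy mouse pancreas, gene by gene, to ask which differences between tumour and resident macrophages remained in the cKO-labelled cells. The comparison used 7 of the 10 libraries of the series, 3 of cKO-labelled TAM and 4 of resident macrophages, with the 3 control TAM libraries as the measure of the tumour difference. Genes were included where the deposited FPKM (fragments per kilobase of gene, scaled to the library's reads) was at least 1 in 3 or more libraries, which 11127 of 12535 genes met. Of those, 199 passed in exactly 3 libraries, while 169 genes that passed in only 2 were left out. The minimum was met only in resident libraries by 289 of the included genes, only in cKO-labelled libraries by 46 and only in control TAM libraries by 39. These could enter the comparison only through the group in which they were high.

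Resident macrophages came from healthy C57/BL6 WT mice (n = 4). Control TAM came from C57/BL6 Ahr fl/fl mice (n = 3), whose Ahr alleles carry loxP sites, and cKO-labelled TAM from C57/BL6 mice labelled Ahr fl/fl Lys M (n = 3). Both TAM groups were taken from orthotopic pancreatic ductal adenocarcinomas 14 days after cells of the KPC organoid line MT4, a single tumour line, had been implanted in the pancreas. All cells were sorted as CD45+CD11b+F4/80+, the surface proteins of leukocytes, myeloid cells and macrophages. The resident mice carry wild-type Ahr and no tumour, so the tumour, the floxed alleles and the Lys M allele cannot be told apart from each other in a comparison of cKO-labelled TAM with resident macrophages. The sources used here give neither age nor sex.

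The aryl hydrocarbon receptor is a transcription factor held in the cytosol by a chaperone complex until it binds a ligand such as a dioxin or a tryptophan metabolite. It then enters the nucleus, pairs with ARNT and binds xenobiotic response elements, and its classical targets include the cytochrome P450 Cyp1b1, the ADP-ribosyltransferase Tiparp and its own repressor Ahrr. In Lys M mice Cre recombinase is expressed from the lysozyme gene Lyz2, which is active in macrophages, monocytes and neutrophils. Macrophages of the healthy pancreas are maintained locally and by monocytes, while tumours draw in further monocytes that mature in hypoxic, inflamed tissue.

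Recovered depth ran from 10312803 reads (control TAM replicate 2) to 26454735 (cKO-labelled TAM replicate 3). Libraries of a group lay close together, with a median coefficient of variation of 2.49% in cKO-labelled TAM and 3.27% in resident libraries among genes of 100 to 1000 FPKM. The p-values below therefore measure only the spread between these libraries, which may in part be technical. The 3 markers of the sort were present in every library: in cKO-labelled TAM Ptprc (CD45) was at 84.2 ± 2.87, Itgam (CD11b) at 59.7 ± 3.32 and Adgre1 (F4/80) at 497 ± 7.72 FPKM (SD, n = 3), and in resident libraries at 69.0 ± 3.31, 31.4 ± 0.995 and 706 ± 14.9 (SD, n = 4). Markers of pancreatic acinar cells summed to 36729 to 39045 FPKM in the resident libraries, 7.02% of their total, and to 549 to 572 FPKM, 0.115% of the total, in cKO-labelled TAM. None of the 45 acinar markers in the table was at 0 in every library of either group. Of the Y-linked transcripts, Uty was at 0 in all 4 resident libraries and at 0.277 to 0.323 FPKM in the cKO-labelled libraries, and in control TAM it was at 0.0569 to 0.243. Uty was too low to be tested. The 4 genes of the list of Y-linked transcripts and Xist summed to 1.22 to 1.54 FPKM in resident libraries. They summed to 2.66 to 3.21 in control TAM and 2.72 to 3.36 in cKO-labelled libraries. The 1 tested member of this list was lower in cKO-labelled TAM than in resident macrophages (log2 change -0.27). RNA was extracted with either of 2 kits, and the sources used here do not say which kit served which library. In bulk samples of this kind, fewer cells of a type and less RNA per cell cannot be told apart.

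Ahr itself was higher in the cKO-labelled libraries than in resident macrophages. Resident replicates 1 to 4 gave 3.84, 4.46, 4.29 and 4.16 FPKM, control TAM replicates 1 to 3 gave 7.11, 6.91 and 7.51, and the replicates labelled cKO gave 10.2, 11.2 and 9.65. The resident and cKO-labelled values did not overlap, and the difference was 1.13 ± 0.07 (SE) on the log2(FPKM + 1) scale, with a limma adjusted p of 2.88e-10. Ahr (ENSMUSG00000019256) is a protein-coding gene on GRCm38 chromosome 12 (35497974 to 35535038, minus strand), and a value over the whole gene also counts exons outside any deleted part. The deletion is thus not checked by these values in either direction, and the group is named by its label throughout. Lyz2, the lysozyme gene that drives Cre in Lys M mice, was at 27682 to 28630 FPKM in resident, 19810 to 19974 in control TAM and 11238 to 11637 in cKO-labelled libraries. It fell by 1.30 on the log2 scale from resident to cKO-labelled TAM (limma adjusted p = 5.53e-17), the larger part of it beyond the fall in control TAM. Because the Lys M allele lies at Lyz2 itself, an effect of the allele on this value cannot be told apart from other changes.

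The known AhR targets differed from resident macrophages in both TAM groups, and for Cyp1b1, Tiparp, Serpinb2 and Nfe2l2 the difference was smaller in cKO-labelled TAM. Motif matches in their promoters are shown here because the receptor pairs with ARNT on the core letters GCGTG. RefSeq promoter windows of the GRCm38.p6 build were searched from 250 to 51 bases before the annotated start for GCGTG on both strands. The 3 classical targets below each held the core, in capitals as GCGTG or as CACGC where it lies on the other strand. The windows are chr17:79715112-79715311 (minus strand), chr3:65528197-65528396 (plus strand) and chr13:74292382-74292581 (minus strand).
Cyp1b1: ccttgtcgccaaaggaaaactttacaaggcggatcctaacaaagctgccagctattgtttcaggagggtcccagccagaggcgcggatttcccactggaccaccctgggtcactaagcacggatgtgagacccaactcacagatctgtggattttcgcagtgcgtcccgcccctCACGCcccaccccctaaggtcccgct
Tiparp: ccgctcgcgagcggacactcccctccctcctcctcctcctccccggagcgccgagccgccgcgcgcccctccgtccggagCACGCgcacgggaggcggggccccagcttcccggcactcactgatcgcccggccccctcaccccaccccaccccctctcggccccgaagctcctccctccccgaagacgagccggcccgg
Ahrr: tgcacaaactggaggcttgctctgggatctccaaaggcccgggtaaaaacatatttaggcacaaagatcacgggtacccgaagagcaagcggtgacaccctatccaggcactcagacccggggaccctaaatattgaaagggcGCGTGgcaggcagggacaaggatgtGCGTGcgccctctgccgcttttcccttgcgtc
Ahrr held 2 matches and the others 1 each. The same core occurred in 22.6% of all 32851 RefSeq promoter windows, in 35.4% of those of the genes tested and in 4 of the 9 windows found for 7 AhR targets, so a match describes letters and is no evidence of binding.

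Cyp1b1 was at 0.224, 0.27, 0.29 and 0.311 FPKM in resident, 2.15, 1.87 and 2.12 in control TAM and 0.845, 0.759 and 0.746 in cKO-labelled libraries. The 3 groups did not overlap, and cKO-labelled TAM lay between the others. Cyp1b1 reached the minimum of 1 FPKM only in control TAM libraries, so it entered the comparison only through the group in which it was high. Its level remained higher than in resident macrophages by 0.49 ± 0.07 on the log2 scale (limma adjusted p = 1.71e-05), a call lost under quantile normalization (0.08, adjusted p = 0.344). Tiparp took the same middle position, at 19.1 to 22.8 FPKM in resident, 34.0 to 34.8 in control TAM and 26.6 to 27.6 in cKO-labelled libraries. Serpinb2, a serine protease inhibitor that large peritoneal macrophages also express, was at 8.23 to 10.3, 446 to 466 and 374 to 384 FPKM, so nearly all of its rise remained. Ahrr was lower in both TAM groups, at 0.165, 0.456 and 0.436 FPKM in cKO-labelled TAM against 0.971 to 1.24 in resident libraries (limma adjusted p = 1e-05), while the direct comparison of the TAM groups missed the threshold (adjusted p = 0.337). Ahrr was under the minimum of 1 FPKM in every cKO-labelled library and near it in resident ones. Lpcat2, an acyltransferase of phospholipid and platelet-activating factor synthesis, stood at 118 ± 4.29 FPKM in cKO-labelled and 119 ± 1.84 in control TAM against 41.8 ± 3.19 in resident macrophages. Entpd1, the CD39 ectonucleotidase, was lower in cKO-labelled TAM (46.7 ± 1.06 FPKM) than in resident macrophages (72.4 ± 1.45), and Slc7a5, an amino acid transporter, was higher (6.09 ± 0.271 against 1.68 ± 0.265). Nfe2l2, the regulator of antioxidant genes, was slightly lower in cKO-labelled TAM (log2 change -0.12, limma adjusted p = 0.00289) and was not called, at 0.02, when libraries were rescaled to a common total.

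Of the 8 AhR targets tested, 5 were higher and 3 lower in cKO-labelled TAM than in resident macrophages, where 40.2% and 37.2% of all genes were called higher and lower. Their median log2 change was 0.42, against 0.92 for control TAM minus resident and 0.02 over all genes. All 8 were called in the same direction in both TAM groups, with 4 of the differences smaller and 2 larger in cKO-labelled TAM. Of the larger ones, the call of Slc7a5 was lost without any 1 of the cKO-labelled replicates (adjusted p = 0.0555 to 0.11). Among the 7 tested genes of the receptor's own complex, 5 were higher and 2 lower than in resident macrophages. Arnt, the dimer partner, was at 9.27 ± 0.251 FPKM in cKO-labelled TAM and 13.9 ± 0.43 in resident macrophages, while the co-chaperone Ptges3 was at 12.7 ± 1.98 and 8.22 ± 0.635 FPKM.

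Across all genes, cKO-labelled TAM differed from resident macrophages at 8612 genes, 77.4% of those tested, with 4477 higher and 4135 lower (limma, Benjamini-Hochberg adjusted p under 0.05). Those tested include 289 genes that met the minimum only in resident and 46 only in cKO-labelled libraries, whose direction the filter favoured. Most differences were small: 1683 genes, or 15.1%, differed by at least 2-fold on the log2(FPKM + 1) scale, 996 of them higher and 687 lower. The libraries of the groups did not overlap at 8400 genes, or 75.5%. Libraries of cKO-labelled and control TAM did not overlap at 5715 genes, or 51.4%. Groups that do not overlap in a named gene thus set it little apart from other genes. With so many genes called, the count of a gene list is read here against these shares, and sizes are given beside it. For control TAM against the same resident libraries 8577 genes were called, or 77.1% (39.0% higher and 38.1% lower), and these are the tumour differences that the cKO-labelled cells could keep.

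Outside the cell type lists, the largest rises were in secreted and enzyme genes of tumour macrophages. Arg1, arginase 1, which cleaves arginine to ornithine and urea (ENSMUSG00000019987, chromosome 10, 24915221 to 24927484, minus strand), was at 7.93, 8.5, 8.91 and 8.56 FPKM in resident libraries and 1904, 1993 and 2008 in cKO-labelled TAM. No library came near the other group, and the rise of 7.70 ± 0.04 on the log2 scale was the largest among called genes outside the cell type lists with a mean of at least 10 FPKM in the higher group (limma adjusted p = 4.33e-24). Control TAM stood higher still, at 3212 to 3322 FPKM, so the rise was smaller by 0.73. Spp1, the secreted glycoprotein osteopontin (chromosome 5, 104435118 to 104441050, plus strand), went from 4.95 to 5.43 FPKM in resident libraries to 1033, 1065 and 1030 in cKO-labelled and 1045 to 1063 in control TAM. Here the TAM groups overlapped, with a difference of -0.02 ± 0.03 (adjusted p = 0.696), which was called at -0.10 when rescaled (adjusted p = 0.0433). The chitinase-like protein gene Chil3 was at 1.99 to 2.64 FPKM in resident and 262, 269 and 266 in cKO-labelled libraries.

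Further down this ranking, the transglutaminase Tgm2 rose from 8.90 ± 0.278 to 516 ± 6.16 FPKM, the surface protein gene Ly6a from 10.3 ± 1.35 to 693 ± 24.5, and Cyp26a1, which degrades retinoic acid, from 1.22 ± 0.341 to 93.6 ± 0.47. Cyp26a1 was above control TAM by 0.27 on the log2 scale (limma adjusted p = 0.0286), a call lost without any 1 of the cKO-labelled replicates (adjusted p = 0.0637 to 0.0693), without control TAM replicate 1 or 3 (0.0787 and 0.0784), with a pseudocount of 0.1 or 0.5 (0.165 and 0.0717), without a variance trend (0.0571) and when rescaled to a common total (0.0875). The monocyte gene Plac8 rose from 9.84 ± 0.472 to 374 ± 6.52 FPKM, and Wfdc21 was at 0 in 2 of 4 resident libraries and at 35.1 to 47.3 FPKM in cKO-labelled TAM. Of 17 genes of recruited monocytes, 15 were higher in cKO-labelled TAM and 1 lower, with a median log2 change of 3.16, close to the 3.13 in control TAM. Among its members Ly6i was at 118 ± 6.09 FPKM against 2.96 ± 0.577 in resident macrophages and Hp, haptoglobin, at 217 ± 7.67 against 11.1 ± 1.14. The member that was lower, Lyz1, is described with the partly kept genes.

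**Figure D1:**
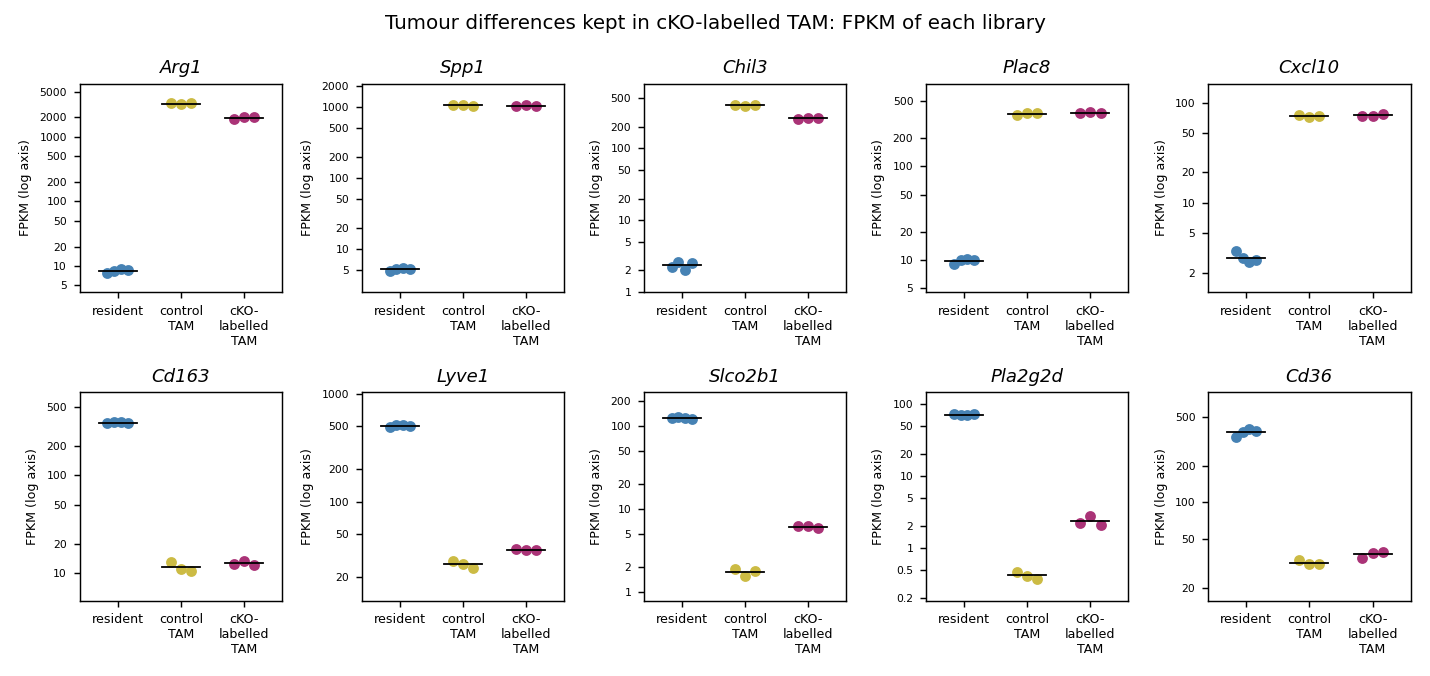
FPKM on a log axis of each library for 10 genes whose tumour difference was kept in cKO-labelled TAM, by group; points are libraries (resident n = 4, either TAM group n = 3) and black lines are group means. In each panel both TAM groups sit on the same side of the resident libraries, for example Spp1 at 1030 to 1065 FPKM in cKO-labelled TAM against 4.95 to 5.43 in resident macrophages.

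Outside the cell type lists, the largest falls among genes of at least 10 FPKM were in immunoglobulin segments and in genes of tissue-resident macrophages. Acinar markers had a median log2 change of -5.02 and are described further on. Igkv12-89, a light chain variable segment of B cells, was at 275 to 294 FPKM in resident libraries and at 0 in all 6 TAM libraries. It thus entered the comparison only through the resident libraries. Immunoglobulin segments made up 5 of the 10 largest falls, and they moved with the B and plasma cell markers, 8 genes whose summed level was 1393 to 1414 FPKM in resident, 94.5 to 103 in control TAM and 250 to 254 in cKO-labelled libraries. No B cell marker was at 0 throughout the resident or cKO-labelled group. Among macrophage genes, Cd163, the scavenger receptor for haemoglobin bound to haptoglobin (chromosome 6, 124304656 to 124330527, plus strand), fell from 340, 348, 351 and 342 FPKM in resident libraries to 12.4, 13.3 and 12.2 in cKO-labelled TAM. Control TAM was at 10.5 to 13.1 FPKM, overlapping with cKO-labelled TAM (limma adjusted p = 0.119, and 0.00345 without control TAM replicate 1). The hyaluronan receptor Lyve1 fell from 492 to 516 FPKM to 35.3 to 36.1, and Cd36, the fatty acid and oxidised lipid receptor, from 343 to 398 FPKM to 35.0 to 39.0. The organic anion transporter Slco2b1 fell from 122 to 127 FPKM to 5.92 to 6.26, and the secreted phospholipase Pla2g2d from 70.3 to 72.5 FPKM to 2.09 to 2.82. In both, cKO-labelled TAM lay above control TAM (1.58 to 1.92 and 0.369 to 0.466 FPKM).

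Of the 29 tissue-resident macrophage genes tested, 26 had lower levels in cKO-labelled TAM than in resident macrophages and 2 were higher, with a median log2 change of -2.0. In control TAM 27 were lower and the median was -2.92. The members that were higher in cKO-labelled TAM were Cd5l, a secreted scavenger protein (log2 change 1.35), and Ccl8, described below. Macrophage identity genes were divided, 6 of 16 higher and 9 lower: the CSF1 receptor Csf1r was at 454 ± 6.90 FPKM against 1240 ± 6.40 in resident macrophages, the phagocytic receptor Mertk at 17.3 ± 0.374 against 34.9 ± 1.31, and the Fc receptor Fcgr1 at 124 ± 1.41 against 46.4 ± 1.48.

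Of the 8577 tumour differences, 7355 (85.8%) were also called in cKO-labelled TAM in the same direction, 3777 of the 4337 genes that were higher in control TAM and 3578 of the 4240 that were lower. These calls share the resident libraries, so the count is a description. The direct comparison of the TAM groups then divides them: cKO-labelled and control TAM differed at 4410 genes (39.6% of those tested), and 4456 of the kept differences had no such call, 1739 were smaller and 1160 larger in cKO-labelled TAM. Another 1079 genes were not called against resident macrophages in cKO-labelled TAM, of which 614 differed between the TAM groups, and 143 were called in the opposite direction. Conversely, 644 genes differed from resident macrophages in cKO-labelled TAM only and differed between the TAM groups too, 371 of them higher and 273 lower.

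**Figure D2:**
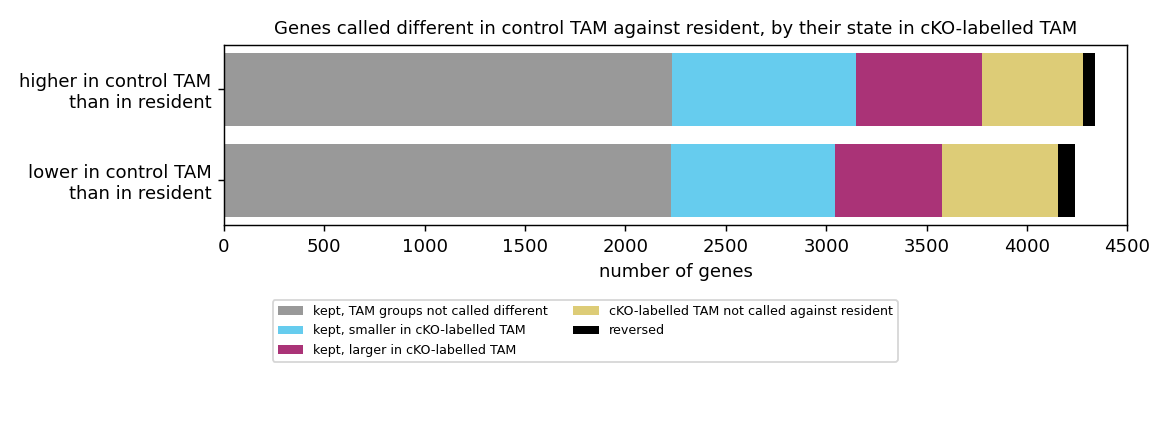
Number of genes called different in control TAM against resident macrophages (horizontal axis, genes), for the 4337 higher and 4240 lower ones, divided by their state in cKO-labelled TAM. The kept classes, grey, blue and purple, take up 3777 and 3578 genes of the bars, and the reversed class at the right 58 and 85.

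Large tumour differences were kept almost without exception. Of 1883 genes that differed by at least 2-fold between control TAM and resident macrophages, 1875 (99.6%) were called in the same direction in cKO-labelled TAM, 1434 of them (76.2% of 1883) again by at least 2-fold. Their size was often lower, with 852 smaller and 223 larger. The 8 exceptions, named after their values were seen, were the chemokine gene Ccl8, the insulin genes Ins1 and Ins2, Spink2, Klk8, H2-Bl, Ttc25 and Ropn1l. Of these, Ins1, H2-Bl and Ttc25 had means above the minimum of 1 FPKM only in control TAM. Their means were under it in resident and cKO-labelled libraries. The filter thus favoured the pattern by which these genes count as exceptions. Ins2 was at 60.6 to 71.8 FPKM in the control TAM libraries, at 2.16, 3.93 and 2.34 in the cKO-labelled ones and at 1.62 to 2.97 in resident macrophages. The 8 islet markers in the table summed to 89.4 to 103 FPKM in the control, 9.06 to 9.87 in the cKO-labelled TAM and 4.16 to 5.53 in resident libraries, and no islet marker was at 0 throughout a group.

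Rises that were smaller in cKO-labelled TAM were frequent among genes of the response to low oxygen. Hypoxia-inducible factors bind the core letters ACGTG, and promoter windows of a hypoxia gene and a glycolysis gene that hold it are printed with the match in capitals, CACGT marking the other strand. They are chr12:54203925-54204124 (minus strand) and chrX:106186850-106187049 (plus strand).
Egln3: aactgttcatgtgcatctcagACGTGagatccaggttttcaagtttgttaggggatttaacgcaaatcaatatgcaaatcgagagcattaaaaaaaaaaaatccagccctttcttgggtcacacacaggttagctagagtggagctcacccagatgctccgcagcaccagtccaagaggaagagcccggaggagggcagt
Pgk1: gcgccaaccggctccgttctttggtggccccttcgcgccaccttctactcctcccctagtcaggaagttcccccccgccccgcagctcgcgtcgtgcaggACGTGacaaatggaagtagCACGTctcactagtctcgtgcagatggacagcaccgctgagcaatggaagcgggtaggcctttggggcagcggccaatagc
Egln3 held 1 match and Pgk1 2. The core occurred in 9 of 26 windows of 19 hypoxia genes (34.6%) and 12 of 33 windows of 21 glycolysis genes (36.4%), in 12.9% of all windows and 16.5% of those of the genes tested, and in 0 of the 9 windows of the AhR targets. GCGTG, the core shown above for the AhR targets, occurred in 46.2% of the hypoxia and 45.5% of the glycolysis windows. In the AhR target windows its share was 44.4%, so GCGTG does not set these lists apart. Some genes have more than 1 window, and these shares were not tested against each other. Here too a match describes letters and is no evidence of binding.

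Egln3, a prolyl hydroxylase that marks hypoxia-inducible factors for degradation (chromosome 12, 54178981 to 54203860, minus strand), was at 0.512, 0.416, 0.155 and 0.45 FPKM in resident macrophages, 62.0, 60.9 and 61.4 in the control and 28.8, 28.0 and 29.1 in the cKO-labelled TAM libraries. The 3 groups were apart, with cKO-labelled TAM 4.43 above resident and 1.07 below control TAM on the log2 scale (limma adjusted p = 3.57e-17 and 8.05e-08). Adm, the vasodilator peptide adrenomedullin, was at 1.10 to 1.93 FPKM in resident, 26.3 to 29.7 in control TAM and 9.66 to 10.9 in cKO-labelled libraries. The growth factor Vegfa did not follow them: it was at 48.8, 50.2 and 48.8 FPKM in cKO-labelled and 48.1 to 49.6 in control TAM, against 0.732 to 0.935 in resident macrophages. Of 23 hypoxia genes outside glycolysis, 19 were higher in cKO-labelled TAM than in resident macrophages and 1 lower (median log2 change 1.62, against 1.97 in control TAM). Against control TAM, 20 of the 23 were lower and 0 higher, where 19.1% of all genes were lower and 20.5% higher. Bnip3l, Kdm3a and Mxi1 had been higher in control TAM and were not called against resident macrophages in cKO-labelled TAM.

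Glycolytic genes had the same order of groups. The glucose transporter Slc2a1 was at 2.97 to 4.05 FPKM in resident, 92.9 to 95.4 in control TAM and 67.1 to 71.5 in cKO-labelled libraries. Gpi1, the isomerase of the second step, was at 59.1 to 62.0, 289 to 299 and 186 to 190 FPKM, and the lactate dehydrogenase Ldha at 245 to 258, 1566 to 1580 and 1140 to 1191. In each of these genes the groups did not overlap. Of 22 glycolytic genes, 19 were higher in cKO-labelled TAM than in resident macrophages and 3 lower (median log2 change 1.77), and 20 were lower than in control TAM, with Slc2a3 as the exception that was higher (0.33). The lower ones against resident macrophages were Pfkm, Pfkfb3 and Pfkfb4. Subunits of oxidative phosphorylation showed another pattern, with 41 of 42 higher than in resident macrophages, Sdha lower, and a median of 0.52 that was close to the 0.47 of control TAM. Between the TAM groups 14 of the 42 were higher and 2 lower in cKO-labelled cells. Cox7b, for instance, was at 102 ± 9.17 FPKM in cKO-labelled TAM and 53.4 ± 2.77 in resident macrophages.

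Cell cycle and DNA replication genes were higher than in resident macrophages at 30 of 32 members and lower at Aurkb and E2f1, with a median log2 change of 0.60 against 1.06 in control TAM. Between the TAM groups 29 were lower in cKO-labelled cells and 0 higher, and 28 of the 31 kept differences were smaller. The ribonucleotide reductase subunit Rrm2 was at 6.06 to 7.46 FPKM in resident, 24.5 to 26.2 in control TAM and 15.7, 16.8 and 17.3 in cKO-labelled libraries. The mitotic checkpoint kinase Bub1 was at 0.728 to 0.914, 4.94 to 5.14 and 2.22 to 3.01 FPKM, and the cyclin Ccnb2 at 6.80 to 8.43, 25.1 to 28.1 and 15.0 to 16.8. All 3 genes kept cKO-labelled TAM between the other groups without overlap. Only 1 of the 2 lower calls held when cKO-labelled replicate 1 or 2 was left out.

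Some inflammatory and tumour-induced macrophage genes also rose less. Nos2, the inducible nitric oxide synthase, was at 0.0856 to 0.22 FPKM in resident, 29.9 to 31.6 in control TAM and 10.0, 11.8 and 12.5 in cKO-labelled libraries. Marco, a scavenger receptor for bacteria and particles, was at 265 to 279, 1202 to 1234 and 563 to 594 FPKM. Gpnmb, a glycoprotein of lipid-laden macrophages, was at 1.15 to 1.65, 34.6 to 36.6 and 11.2 to 13.1 FPKM in the same order. Outside the gene lists the largest reductions of a rise were in Prl2c3 and Prl2c2, which belong to a family of near-identical prolactin-like genes and are thus uncertain, in the uncoupling protein Ucp1 (0.54 ± 0.103 FPKM in resident and 9.36 ± 0.58 in cKO-labelled TAM) and in Enpp2, which makes lysophosphatidic acid (2.31 ± 0.0958 and 4.53 ± 0.258). Even so, 17 of 19 inflammatory activation genes were higher in cKO-labelled TAM than in resident macrophages and 1 lower, with a median log2 change of 1.51 against 2.11 in control TAM. In the direct comparison of the TAM groups 4 of the 19 were higher and 6 lower in cKO-labelled cells, with a median of 0.02. Il1a, interleukin-1 alpha, was at 39.7 ± 2.82 FPKM against 2.24 ± 0.325 in resident macrophages, and the acute phase gene Saa3 at 2091 ± 59.3 against 210 ± 7.20.

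**Figure D3:**
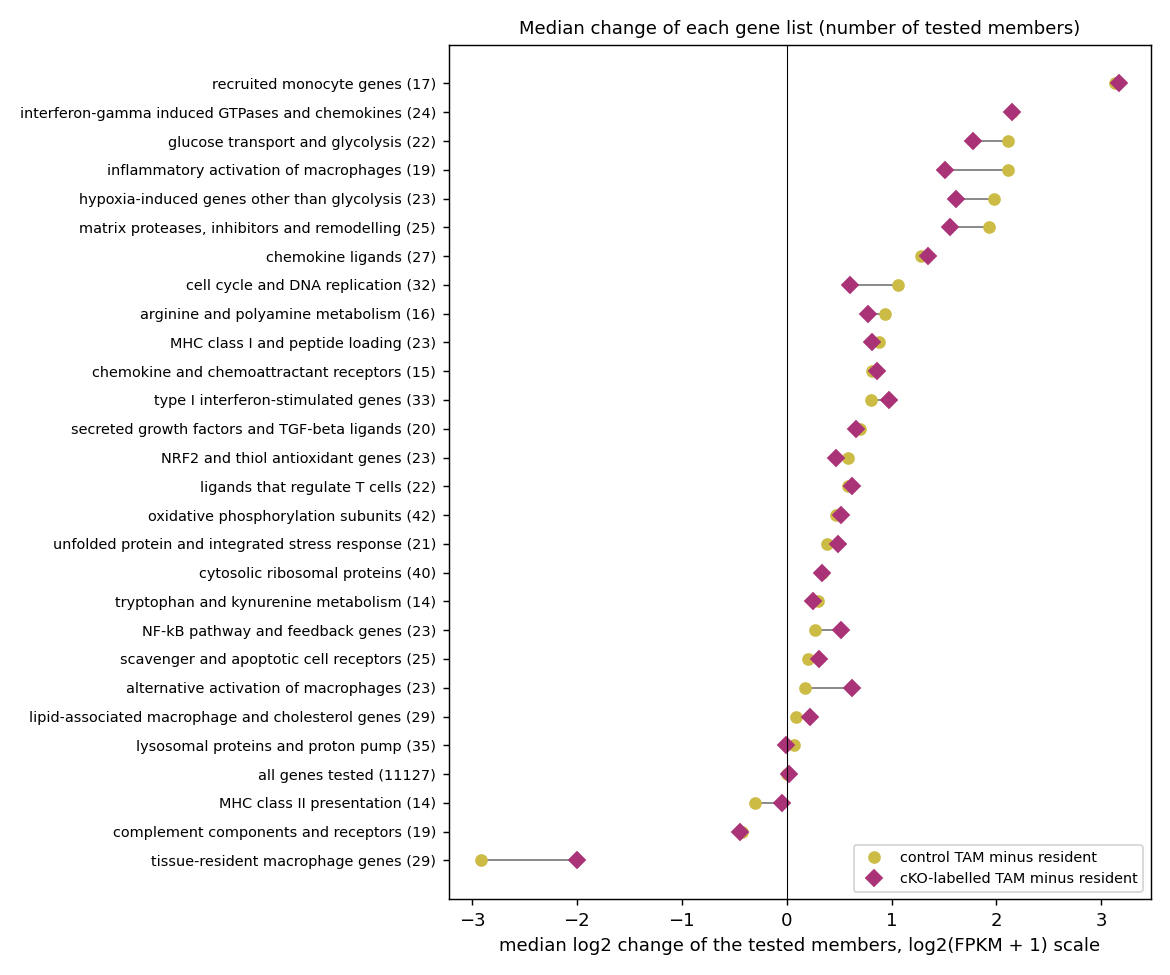
Median log2 change on the log2(FPKM + 1) scale (horizontal axis) of the tested members of each gene list, for control TAM minus resident (circles) and cKO-labelled TAM minus resident (diamonds); both share the resident libraries, and the number of tested members is in brackets. Hypoxia, glycolysis and cell cycle genes have medians of 1.62, 1.77 and 0.60 in cKO-labelled TAM, below those of control TAM, while tissue-resident macrophage genes have -2.0, above it.

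Falls that were smaller in cKO-labelled TAM were led by C-type lectins and other genes of resident macrophages. Cd209f, a lectin of the SIGN-R family (ENSMUSG00000051906, chromosome 8, 4102787 to 4105835, minus strand), was at 793, 761, 770 and 767 FPKM in resident macrophages, 1.52, 1.41 and 1.69 in the control and 62.5, 63.0 and 58.5 in the cKO-labelled TAM libraries. It was thus far below resident macrophages (log2 change -3.64) and far above control TAM (4.62, limma adjusted p = 7.22e-19), the largest difference of the TAM groups among the genes that fell. Its neighbours Cd209g and Cd209d had the same order, at 9.61 to 10.3 and 7.0 to 7.4 FPKM in cKO-labelled libraries against 125 to 133 and 117 to 129 in resident and 0.487 to 0.635 and 0.93 to 1.23 in control TAM libraries. The Cd209 genes are close paralogs, so reads may be divided between them. Clec10a, a galactose-binding lectin, kept most of its level: 206 to 212 FPKM in resident, 24.3 to 27.8 in control TAM and 118, 120 and 124 in cKO-labelled libraries. Clec4b1 was at 132 to 145, 13.7 to 14.7 and 87.0 to 97.6 FPKM.

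Retnla, a secreted protein induced by interleukin-4, fell from 9853 to 10896 FPKM in resident libraries to 1219, 1391 and 1307 in cKO-labelled TAM, while control TAM stood at 235 to 251. Gas6, the ligand that bridges apoptotic cells to MERTK, was at 541 to 559, 81.7 to 83.6 and 21.5 to 22.1 FPKM in the same order, and the matrix protease Mmp9 at 326 to 334, 118 to 126 and 41.2 to 41.8. Chp2 was at 78.8 to 82.6, 11.2 to 12.0 and 0.882 to 1.01 FPKM. Lyz1 (chromosome 10, 117287797 to 117292868, minus strand), a lysozyme gene next to the near-identical Lyz2, was at 1106 to 1119 FPKM in resident, 796, 834 and 828 in cKO-labelled and 144 to 148 in control TAM libraries. Its order was not that of Lyz2, which was lowest in cKO-labelled TAM and is the locus of the Lys M allele. Reads of the pair may also be divided by the counting. In all of these genes the 3 groups were apart, where the TAM groups did not overlap at 51.4% of all genes. Of the 29 tissue-resident genes, 21 were higher in cKO-labelled than in control TAM and 6 lower, where 20.5% of all genes were higher, and 21 of their 27 kept differences were smaller and 5 larger.

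Acinar and B cell markers had the same order, with cKO-labelled TAM between resident and control TAM, while islet, epithelial and stromal sums were highest in control TAM. Acinar markers were lower in cKO-labelled TAM than in resident macrophages at 40 of 44 tested members and higher than in control TAM at 35, and 32 of 43 kept differences were smaller. Their sum in cKO-labelled TAM was 1.49% of the resident mean, against 0.489% in control TAM (178 to 187 FPKM), where Amy2a5 and Klk1b5 were at 0. Pnlip, the pancreatic lipase, was at 3165 to 3293 FPKM in resident, 2.06 to 3.71 in control TAM and 15.8 to 17.5 in cKO-labelled libraries. The B cell sum was 17.9% of the resident mean in cKO-labelled TAM and 7.02% in control TAM, where Mzb1 was at 0. On the same scale of percent of the resident mean, the macrophage genes in cKO-labelled TAM stood at 7.93% for Cd209f, 12.7% for Retnla, 15.0% for Gas6, 37.5% for Mmp9, 57.7% for Clec10a, 66.5% for Clec4b1 and 73.6% for Lyz1. In control TAM these were 0.199%, 2.35%, 3.97%, 12.6%, 12.6%, 10.2% and 13.1%. The part of acinar or B cell transcripts in these results was not tested.

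Reversed genes were few, 143 of 8577, and Ccl8 was the largest of them. Ccl8, a chemokine that draws monocytes and T cells (ENSMUSG00000009185, chromosome 11, 82115185 to 82116799, plus strand), was at 514, 500, 472 and 501 FPKM in resident macrophages, 189, 195 and 190 in the control and 1456, 1643 and 1545 in the cKO-labelled TAM libraries. Control TAM lay below resident macrophages and cKO-labelled TAM above, by 1.64 ± 0.04 on the log2 scale (limma adjusted p = 1.64e-15). Acp5, tartrate-resistant acid phosphatase, was at 60 to 65.6, 50.7 to 57.9 and 97.4 to 102 FPKM in resident, control and cKO-labelled libraries. Adi1, an enzyme of the methionine salvage pathway, was at 18.9 to 22.7, 13.7 to 15.7 and 26.1 to 29.9 FPKM, and Ndufa4, a respiratory chain protein, at 68.3 to 72.6, 43.1 to 50.8 and 77.6 to 93.4.

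In the other direction, Ide, the insulin-degrading enzyme, was at 15.5 to 17.6 FPKM in resident, 21.0 to 23.2 in control TAM and 9.83, 10.6 and 9.90 in cKO-labelled libraries, a fall of 0.66 on the log2 scale against resident macrophages (limma adjusted p = 3.37e-08). The apolipoprotein gene Apoc1 was at 7.31 to 8.67, 12.0 to 12.4 and 3.93 to 5.54 FPKM. Neither gene's groups overlapped. Some smaller reversals rested on the scaling or on a library. The fatty acid-binding protein Fabp7 and the peroxisomal transporter Abcd2 were lower than resident by 0.21 each, calls that were lost when libraries were rescaled to a common total. Spink2, a protease inhibitor, was lower by 0.23 (limma adjusted p = 0.0204), and it was not called without cKO-labelled replicate 2 (adjusted p = 0.155), when rescaled (0.209) or by voom (0.207). The collagen-binding proteoglycan Dcn, a stromal marker, was lower by 0.13 and not called without cKO-labelled replicate 2 (adjusted p = 0.0856) or resident replicate 3 (0.0502), nor when rescaled.

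**Figure D4:**
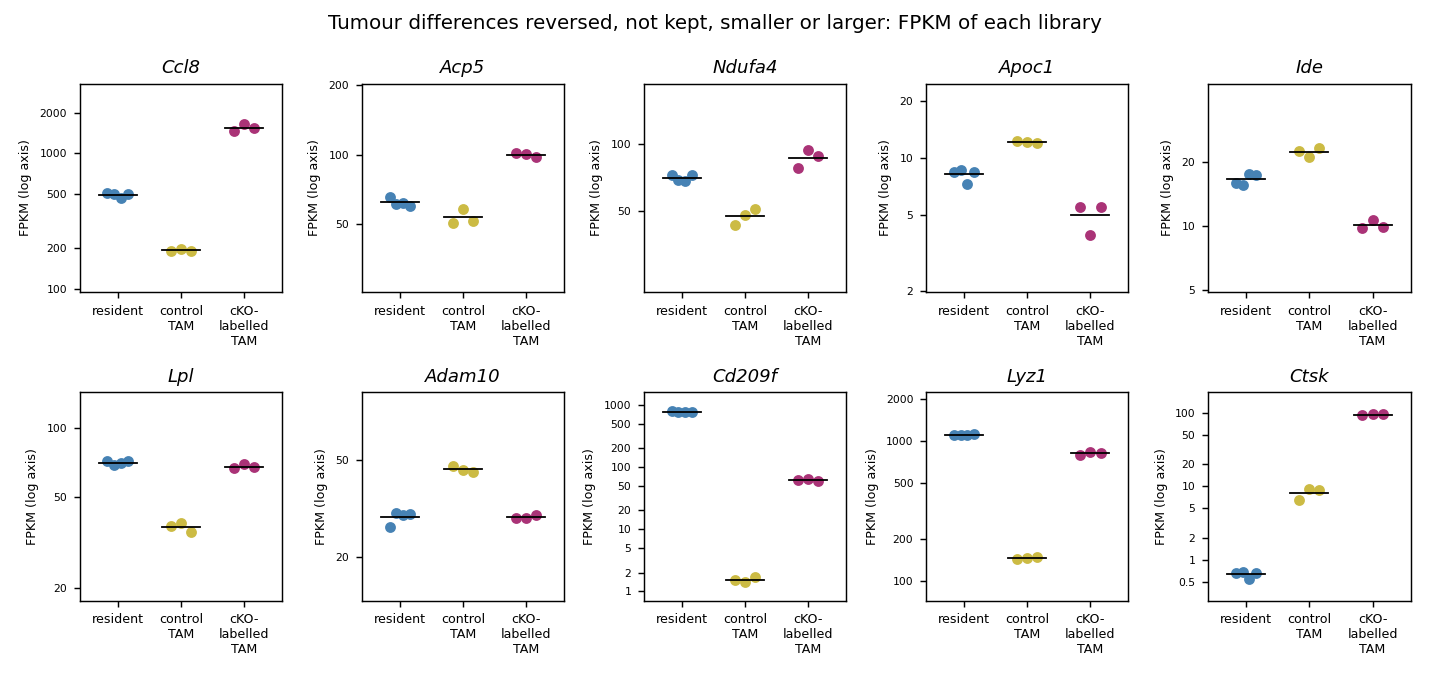
FPKM on a log axis of each library for 10 genes whose tumour difference was reversed (Ccl8, Acp5, Ndufa4, Apoc1, Ide), not kept (Lpl, Adam10), smaller (Cd209f, Lyz1) or larger (Ctsk) in cKO-labelled TAM; points are libraries (resident n = 4, either TAM group n = 3) and black lines are group means. Ccl8 is at 189 to 195 FPKM in control TAM and 1456 to 1643 in cKO-labelled TAM, on either side of the resident libraries.

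Among tumour differences that were not called in cKO-labelled TAM, Lpl, the lipoprotein lipase that frees fatty acids from circulating lipids, was at 71.4, 68.8, 70.4 and 71.6 FPKM in resident, 37.2, 38.5 and 35.1 in control TAM and 66.5, 69.3 and 67.2 in cKO-labelled libraries. The cKO-labelled and resident libraries overlapped (log2 difference -0.06 ± 0.04, limma adjusted p = 0.168), though under quantile normalization Lpl was called lower by 0.15. The membrane protease Adam10 was at 26.3 to 30.3, 44.4 to 47.3 and 28.7 to 29.5 FPKM (adjusted p = 0.961), and called higher by 0.13 when rescaled to a common total. Atp7a, a copper transporter, was at 7.02 ± 0.42 FPKM in cKO-labelled and 7.15 ± 1.02 in resident libraries. The GTPase Rhoc (log2 difference 0.14, limma adjusted p = 0.0899) was called higher than resident without cKO-labelled replicate 3 or resident replicate 1 (adjusted p = 0.0423 and 0.0347), and by 0.27 when rescaled to a common total (adjusted p = 0.00138). Selm, a selenoprotein, was at 17.1 ± 0.476 and 16.1 ± 2.29 FPKM and was called higher when rescaled. A missed threshold does not show that these levels are the same.

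Differences that were larger in cKO-labelled TAM were led by Ctsk, cathepsin K, a protease that cleaves collagen (ENSMUSG00000028111, chromosome 3, 95499256 to 95509362, plus strand). It was at 0.665, 0.671, 0.547 and 0.66 FPKM in resident, 6.47, 9.14 and 9.07 in control TAM and 94.0, 97.0 and 96.9 in cKO-labelled libraries. The rise against resident macrophages was 5.89 ± 0.09 on the log2 scale, and 3.41 of it lay beyond control TAM (limma adjusted p = 2.16e-13). The chemokine gene Ccl17 was at 0 to 0.18 FPKM in resident, 1.21 to 2.89 in control TAM and 6.92 to 9.38 in cKO-labelled libraries, and Ccl12 at 13.4 to 16.8, 80.4 to 93.4 and 142 to 169. The cytokine genes Ltb, Il4 and Osm followed the same order: Ltb stood at 14.8 ± 0.783 FPKM in cKO-labelled TAM against 1.71 ± 0.022 in resident macrophages, Il4 at 17.3 ± 3.63 against 2.23 ± 0.906, and Osm, oncostatin M, at 84.1 ± 2.48 against 9.55 ± 0.43. Gdf3, a TGF-beta family ligand, was at 39.4 to 39.8 FPKM against 6.43 to 7.51, with control TAM at 16.9 to 20.5. The proton pump subunit Atp6v0d2 was at 6.92, 8.22 and 7.72 FPKM in cKO-labelled TAM and 1.27 to 1.89 in resident macrophages.

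Falls that were larger included the transcription factor Klf9, at 13.9 to 16 FPKM in resident, 5.37 to 6.24 in control TAM and 2.0 to 2.75 in cKO-labelled libraries. Cpt1a, which carries fatty acids into mitochondria, was at 62.8 to 67.1, 42.2 to 42.8 and 25.8 to 28.3 FPKM, and the integrin Itga9 at 11 to 11.7, 8.76 to 9.42 and 4.69 to 5.19. Each of these had 3 groups without overlap.

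Of the 644 genes that differed from resident macrophages only in cKO-labelled TAM, Ctla2a, an inhibitor of cathepsins, had the largest rise over control TAM outside the cell type lists among genes of at least 10 FPKM. It was at 5.18 to 6.83 FPKM in resident, 6.04 to 7.24 in control TAM and 16.5, 15.5 and 13.9 in cKO-labelled libraries (log2 change 1.23 ± 0.09, limma adjusted p = 3.39e-09). Gpsm3, a regulator of G protein signalling, was at 30.2 ± 2.70 FPKM in cKO-labelled TAM and 19.6 ± 0.919 in resident macrophages. Falls of this kind were in Mlxipl, the glucose-responsive transcription factor ChREBP (18.5 ± 0.194 against 28.8 ± 1.65 FPKM), Pald1 (7.56 ± 0.607 against 12.1 ± 0.598) and Etv5 (7.69 ± 0.229 against 11.6 ± 0.484). Plvap, a protein of fenestrated endothelium, was at 15.7 to 17.9 FPKM in cKO-labelled TAM against 0.495 to 0.779 in resident and 0.49 to 1.29 in control TAM. The 9 endothelial markers, Plvap among them, summed to 38.2 to 39.7, 4.51 to 5.07 and 13.9 to 15.2 FPKM in that order. This sum is thus not independent of Plvap. None of the 9 markers was at 0 throughout a group. The part of endothelial transcripts in the Plvap result was not tested.

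Interferon responses remained in cKO-labelled TAM. Of 33 type I interferon-stimulated genes, 30 were higher than in resident macrophages and 2 lower (Oas2 and Irf9), with a median log2 change of 0.97 beside 0.80 in control TAM. The interferon-gamma list was higher at 23 of 24 members and lower at 1, with a median of 2.15. Cxcl10, which draws T cells through CXCR3, was at 2.56 to 3.25 FPKM in resident and 72.8, 73.8 and 77.2 in cKO-labelled libraries, overlapping with control TAM (71.7 to 74.7). Isg15, a ubiquitin-like protein, was at 75.1 ± 3.49 FPKM against 12.0 ± 2.53, and the checkpoint ligand Cd274 (PD-L1) at 58.4 ± 1.43 against 3.69 ± 0.253. Against control TAM, 8 of the 33 type I genes were higher and 9 lower. Of the 24 interferon-gamma genes, 4 were higher and 9 lower, where 20.5% of all genes were higher and 19.1% lower. Among the lower ones, Ifit2 stood at 17.7 to 20.8 FPKM in cKO-labelled and 31.0 to 33.2 in control TAM, against 3.60 to 4.69 in resident macrophages. Ido1, which breaks down tryptophan, was at 12.5 to 14.0, 21.8 to 22.7 and 0.0402 to 0.549 FPKM in the same order. The reduction of Ido1 was not called with a pseudocount of 0.1 (adjusted p = 0.147).

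Genes of MHC class I were mostly higher, and those of class II were divided. Of 23 genes of MHC class I and peptide loading, 22 were higher in cKO-labelled TAM than in resident macrophages and 0 lower, with a median log2 change of 0.81 beside 0.88 in control TAM. H2-M3 was the member without a call, and under quantile normalization 1 member was lower. Against control TAM, 2 of the 23 were higher and 8 lower. The peptide transporter Tap1 was at 151 ± 5.72 FPKM against 48.6 ± 1.35 and the proteasome activator Psme2 at 272 ± 1.59 against 82.3 ± 5.30. MHC class II genes were divided, with 6 of 14 higher and 7 lower and a median of -0.04, against -0.30 in control TAM. H2-Ab1, a class II beta chain, was at 15474, 14879, 14566 and 14737 FPKM in resident, 10711, 11338 and 10978 in control TAM and 15537, 15921 and 15287 in cKO-labelled libraries. It missed the threshold narrowly (log2 difference 0.06, limma adjusted p = 0.0501), was called higher than resident without resident replicate 1 (adjusted p = 0.0055), without cKO-labelled replicate 3 (0.0466), without control TAM replicate 2 (0.0478), by voom (0.00182) and when rescaled (log2 difference 0.20), and reached 0.87 under quantile normalization. H2-Eb1 was lower than in resident macrophages at 5115 to 5207 against 5781 to 6145 FPKM, with control TAM at 3449 to 3611.

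Among 27 chemokine ligands, 19 were higher in cKO-labelled TAM than in resident macrophages and 7 lower (median log2 change 1.34, beside 1.28 in control TAM), and 11 were higher and 4 lower than in control TAM. Ccl5 was at 68.4 ± 2.25 FPKM against 6.53 ± 0.345 and Cxcl9 at 54.1 ± 2.42 against 3.66 ± 0.191. The ligands that were lower included Cxcl13, which guides B cells (log2 change -2.63), Cxcl12 (-2.25), Pf4 (-1.83) and Ccl11 (-1.72). For ligands that regulate T cells, 13 of 22 were higher and 6 lower. Nt5e, the CD73 ectonucleotidase, was at 35.6 ± 1.65 FPKM against 0.597 ± 0.139, and Pdcd1lg2 (PD-L2) at 7.40 to 9.62 FPKM against 0.0561 to 0.218, with control TAM at 5.01 to 5.79. Genes of alternative activation were divided, 12 of 23 higher and 10 lower, with Arg1 and Chil3 among the former and Retnla and Clec10a among the latter. Against control TAM, 12 of the 23 were higher and 3 lower.

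Arginine and polyamine genes were higher at 12 of 16 members and lower at 2. Slc7a2, the arginine importer, was at 27.4, 27.5 and 28.2 FPKM in cKO-labelled, 54.6 to 57.9 in control TAM and 2.32 to 2.98 in resident libraries. Tryptophan and kynurenine genes were higher at 8 of 14 and lower at 5. The tryptophanyl-tRNA synthetase Wars was at 68.5 to 69.2 FPKM against 35.9 to 38 in resident macrophages, with control TAM at 105 to 109, and the monoamine oxidase Maoa at 2.20 ± 0.0375 against 14.4 ± 0.909. Matrix proteases, inhibitors and remodelling genes were higher at 22 of 25 and lower at 2, with the inhibitor Timp1 at 43.1 to 43.8 FPKM against 0.163 to 0.603. Complement genes were mostly lower, 12 of 19, with 6 higher. C3 was among the higher ones (99.2 ± 4.90 against 38.4 ± 1.49 FPKM, with control TAM at 138 to 143), as was the inhibitor Serping1 (22.8 to 25.3 against 6.13 to 7.47 FPKM, with control TAM at 42.8 to 45.4). Lysosomal genes were split evenly, 16 of 35 higher and 16 lower.

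NF-kB pathway genes were higher than in resident macrophages at 16 of 23 members and lower at 3 (median log2 change 0.52, beside 0.27 in control TAM). Against control TAM 12 of the 23 were higher and 3 lower. In the remaining lists the higher and lower members were 17 and 5 of 23 NRF2 and thiol antioxidant genes, 16 and 3 of 21 unfolded protein and stress genes, 13 and 6 of 20 growth factors, 10 and 5 of 15 chemoattractant receptors, 14 and 11 of 25 scavenger receptors, and 16 and 8 of 29 lipid and cholesterol genes. Ribosomal proteins were higher at 32 of 40 and lower at 0 (median 0.33, beside 0.34 in control TAM). Early genes that tissue dissociation can induce were higher at 18 of 23 and lower at 3 (median 0.69, beside 0.60). Their part in the other results was not tested.

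Markers of other cell types also differed from resident libraries. The CD45+CD11b+F4/80+ sort would remove acinar, islet, epithelial, endothelial and stromal cells, which lack CD45, and most T and B cells, which lack CD11b. Neutrophils and eosinophils carry both proteins, but the sort also required F4/80. Whether such cells passed it was not tested. Neutrophil markers were higher at 14 of 15 members and lower at Mmp9, and summed to 1982 to 2160 FPKM in cKO-labelled TAM, 1537 to 1578 in control TAM and 363 to 374 in resident libraries, with Retnlg at 1336, 1491 and 1434 FPKM against 0.109 to 0.68. Most of the resident sum was Mmp9, also described above among genes of resident macrophages, and most of the cKO-labelled sum was Retnlg. S100a9 was at 53.1, 59.4 and 58.7 FPKM in cKO-labelled, 22.3 to 28.7 in control TAM and at 0 in 3 of the 4 resident libraries. No neutrophil marker was at 0 throughout a group. Eosinophil markers were higher at 6 of 7 and lower at Ear2, with sums of 1511 to 1533, 1464 to 1503 and 185 to 194 FPKM in the same order. The eosinophil granule gene Prg2 was at 0 in the resident libraries and at 31.7 to 37.8 FPKM in cKO-labelled TAM. Of 17 large peritoneal macrophage genes, 12 were higher and 2 lower. Their sums were 4678 to 4781, 5022 to 5044 and 1019 to 1036 FPKM, and the peritoneal regulator Gata6 was at 9.78 ± 0.626 FPKM against 1.32 ± 0.148. Saa3, described above as an acute phase gene, made up a large part of the cKO-labelled sum. Epithelial markers were higher at 16 of 16 (611 to 619 FPKM against 183 to 201 in resident libraries), with Krt19 at 68.9 ± 1.07 against 1.76 ± 0.401. Stromal markers were higher at 13 of 14 (214 to 219 against 54.9 to 57.6 FPKM). No epithelial or stromal marker was at 0 throughout a group. T and NK cell markers summed to 33.2 to 35.5 against 34.9 to 37.9 FPKM, with 11 of 15 members higher and 4 lower, and dendritic markers to 248 FPKM in each cKO-labelled library against 362 to 381, with 4 of 11 higher and 6 lower. Mast cell and basophil markers were not tested, since none passed the filter, and of the erythroid and platelet markers only Itga2b did (2.24 ± 0.515 against 2.17 ± 0.519 FPKM). The part of these cells in the gene results was not tested.

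**Figure D5:**
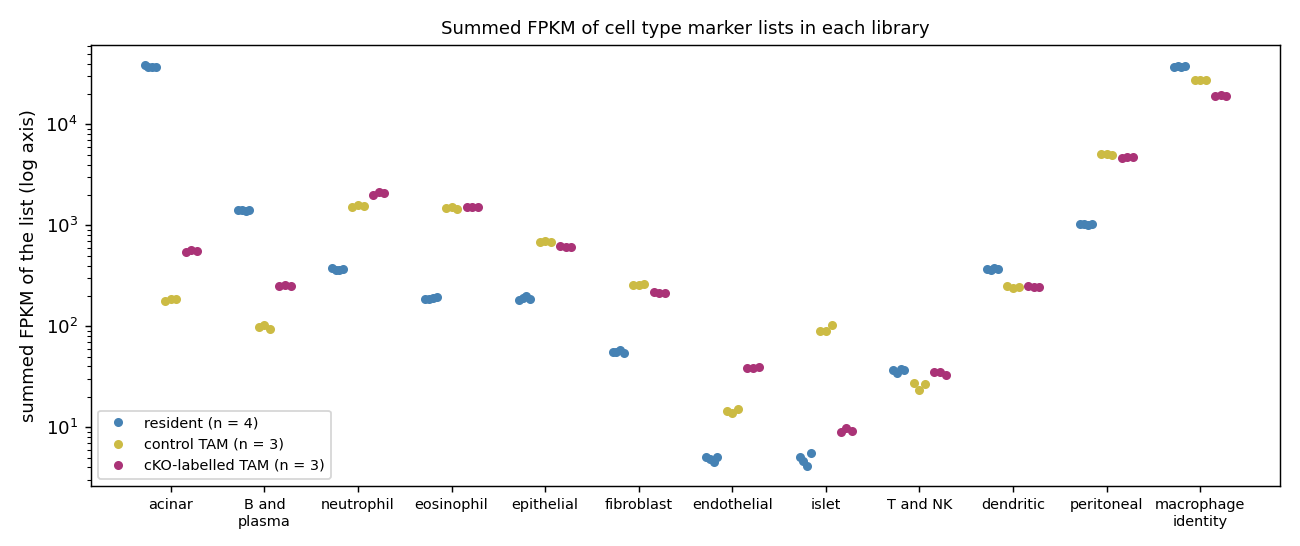
Summed FPKM (log axis) of the marker list of each cell type in every library, by group; points are libraries (resident n = 4, either TAM group n = 3). Acinar and B cell sums in cKO-labelled TAM lie between those of control TAM and resident macrophages, at 549 to 572 and 250 to 254 FPKM, while neutrophil and endothelial sums are highest in cKO-labelled TAM.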

How the data were processed

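Macrophages sorted from mouse pancreas or pancreatic tumours were profiled in 10 RNA-seq libraries, and all 10 columns of 1 table were used, each matched to its sample by title. Per the labels' protocols, RNA was amplified with a SMART-Seq v4 kit and sequenced as Nextera XT libraries. These do not mark strand, and a gene's reads cannot be separated from those of an antisense partner. Values are FPKM as the authors deposited them, 1 column per library. The submitters' processing notes name STAR, edgeR, mm10 and GRCm38. How gene lengths, library scaling and gene filter were set is not stated in the sources used here. Of 316 genes without a symbol, 312 were named by identifier. Coordinates are 1-based, from GENCODE M21 (GRCm38).

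Depth was estimated from low FPKM values: 85.8% to 87.1% of values between 1 and 200 reads came out whole within 0.05 of a read. Within groups, pairs of libraries differed by 1.78 to 3.10 times counting noise (median squared difference), so each was counted as 1 replicate. Libraries of 1 pool of cells would pass it too.

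Limma 3.58.1 (R 4.3.3) was fitted to log2(FPKM + 1) of 11127 genes in all 10 libraries with 3 group means, a variance trend and 7 residual degrees of freedom, with Benjamini-Hochberg adjustment and a threshold of 0.05. Log2 changes are on that scale, which makes changes of low genes look smaller. A tumour difference is a gene called in control TAM minus resident. It is kept where cKO-labelled TAM minus resident is called in the same direction, and smaller or larger where the TAM groups also differ. Values are mean FPKM ± SD.

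Genes were named by rule: Ahr, Lyz2 and AhR targets; the 10 largest rises and falls; the 5 largest differences between the TAM groups in each class and direction; all but the AhR genes with at least 10 FPKM on average in their highest group; and the called members of each list with the largest changes, with at least 5 FPKM there, and the 2 most abundant markers of each cell type. The text names part of these. The gene lists and members were chosen with earlier results of these data known. Pgk1, Ldha, the sort markers, Uty, the 8 genes named as exceptions, markers named as at 0 and list members named as lower, not called or against their list were chosen after their values were seen.

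On simulated data for cKO-labelled TAM minus resident (11127 genes, 10 draws of 200 changed genes), 93.4% of 1.5-fold and 99.4% of 2-fold changes were recovered and 5.23% of calls were false. With 8612 genes called in the data, these rates need not hold there. The alternatives were other pseudocounts, filters and scalings, no variance trend, only the groups compared, a replicate block, each library left out, a 2-fold limit and, chosen after seeing the data, voom on recovered reads.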

Additional observations from a re-analysis of the deposited data

Results flagged for a closer look

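In the resident group, the 1 group of 4 libraries, 8 of 137 genes examined had a library that stood apart from the other 3 by Dixon's criterion, which chance alone meets in about 1 in 20 groups. Resident replicate 3 was low for Ctsk (0.547 FPKM), Apoc1 (7.31) and Herpud1 (249). Resident replicate 4 was high for Prl2c3 (0.0783 FPKM, with the others at 0), S100a9 (0.128, with the others at 0) and Gdf3 (7.51). Resident replicate 1 was low for Adam10 (26.3 FPKM) and resident replicate 2 for Cox7b (49.3). For Ctsk, Apoc1, Prl2c3, S100a9, Gdf3, Herpud1 and Cox7b the values in cKO-labelled TAM lay outside the whole resident range. For Adam10 they lay within it.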

How the results depend on the processing

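A 2-fold limit changed every count by over 1.5 times: 996 genes were then higher and 687 lower in cKO-labelled TAM than in resident macrophages, 1434 tumour differences were kept and 449 not kept, 69 kept differences were smaller and 17 larger, and 25 genes differed in cKO-labelled TAM only. Under the other alternatives, voom included, these 7 counts moved by less than 1.5 times. With each library left out in turn, higher calls ranged from 4251 to 4493 (4477 with all libraries), lower calls from 3915 to 4153 (4135), kept differences from 7101 to 7257 (7355), those not kept from 1048 to 1403 (1222), smaller ones from 1421 to 1791 (1739), larger ones from 847 to 1224 (1160) and those of cKO-labelled TAM only from 490 to 674 (644). Voom on recovered reads called 8786 genes.

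Scaling all libraries to 1 total shifted the median log2 change of all genes from 0.02 to 0.13 and the share of calls that were higher from 52.0% to 61.7%, so small changes depend on the scaling. It reversed 2 named genes against resident macrophages, Nfe2l2 (0.017, adjusted p = 0.652) and Adam10 (0.13, adjusted p = 0.0416), and the cause was not tested. For the 137 genes examined, 2819 of 2874 recomputed differences from resident macrophages kept their direction and their side of the threshold, 40 lost the call, 13 gained it and 2 reversed. Counts of list members stayed within 1.5 times in 1814 of 1890 cases.

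Same-numbered libraries did not deviate together (correlations of -0.06 to 0.11), so the replicate numbers do not pair the libraries. With the number as a replicate block, 8437 genes were called against 8612, and 85.8% of tumour differences were kept.

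Genes near the minimum of 1 FPKM rest on few reads. The group, the tumour and any difference in extraction kit cannot be told apart.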
